A study of Mus musculus with 17 samples.

Results

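The remote, non-infarcted left ventricular wall of mice with myocardial infarction (MI) was compared with the same wall of sham-operated mice, 4 weeks after surgery. The comparison holds the 12 arrays that the sample labels assign to these 2 groups, 6 MI and 6 sham, of 17 arrays in all. The other 5 arrays (MI+Val) come from infarcted mice given valsartan, an angiotensin receptor blocker, at 1 mg/kg per day in the drinking water. They were used here to estimate chip effects and the spread between arrays. They also took part in the normalization, the filter on dim probes and the choice of probe for each gene. All mice were female, of the strain written C57/BL6 in the labels. Their stated age of 8 to 10 weeks is given with their purchase, and the tissue was taken 4 weeks after surgery.

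MI mice underwent ligation of the left anterior descending coronary artery and drank plain water. They entered the study only with an ejection fraction of 35 to 45% on magnetic resonance imaging at 24 h, so the group leaves out the mildest and the most severe infarcts. Sham mice had the chest opened without ligation. The tissue was the posterior and inferior wall, which is supplied by other arteries than the ligated one, and total RNA of the whole piece was hybridised to Illumina MouseWG-6 v2 bead arrays. The study's methods count the array work by mice per group, so each array is taken as 1 mouse. The arrays lay on 3 chips: chip 1 held 4 MI arrays and 1 sham array, chip 2 held 1 and 3, and chip 3 held 1 and 2.

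After an infarct the surviving myocardium carries more load. Cardiomyocytes under load re-express genes of the fetal heart, such as skeletal alpha-actin, beta-myosin heavy chain and natriuretic peptides. Fibroblasts lay down collagen, elastin and the glycoproteins that bind them, and enzymes of the lysyl oxidase family crosslink these fibres. The adult heart otherwise lives mainly on fatty acid oxidation in its mitochondria. In RNA of whole tissue, fewer cells of a type and less RNA per cell cannot be told apart.

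The median signal of an array was 90.0 to 120.3 in MI mice and 104.7 to 115.2 in sham mice, and 13929 to 15206 probes were detected on the MI arrays, against 14108 to 14955 on the sham arrays. The defining markers of cardiomyocytes were at the top of the signal range: the 7 with a probe (of 8) passed the filter, with a median at percentile 99.53 of all genes. None of the 6 markers of T, B and NK cells with a probe passed the filter on dim probes, nor did any of the 3 adipocyte markers with a probe. Without regard to the filter, no probe for Postn or Cthrc1, both made by activated fibroblasts, was detected on any MI or sham array. Tnnt2 and Mki67 are not reported here because no probe of these arrays carried either symbol in the annotation used.

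Before any comparison, 3 of the 12 arrays stood apart by genes of the cardiac atria. Myl7, the atrial regulatory myosin light chain, had a signal of 1434.6 in MI replicate 5, against 80.9 to 103.7 in the other 5 MI mice. In sham mice it was 568.5 in replicate 5 and 3803 in replicate 6, and 95 to 113.3 in the other 4. Sln, sarcolipin, the atrial inhibitor of the calcium pump, was raised in these arrays alone among the 12, at 1528.4 in MI replicate 5, and at 513.5 in sham replicate 5 and 4468.6 in sham replicate 6. Myl4, the atrial essential light chain, followed the same order, with 5743.8 in MI replicate 5 and 1979.5 and 9115.7 in sham replicates 5 and 6. The labels give all samples as left ventricle. These arrays are the only MI array of chip 2 and both sham arrays of chip 3, so counts are given below with and without them. Of the MI+Val arrays, replicates 4 and 5, both on chip 3, also detected Myl7 (392.2 and 285.1) and Sln (353.6 and 289.1). Both stayed in the main fit and in the fits without the 3 arrays, so the chip 3 term rests partly on arrays with atrial genes.

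**Figure D1:**
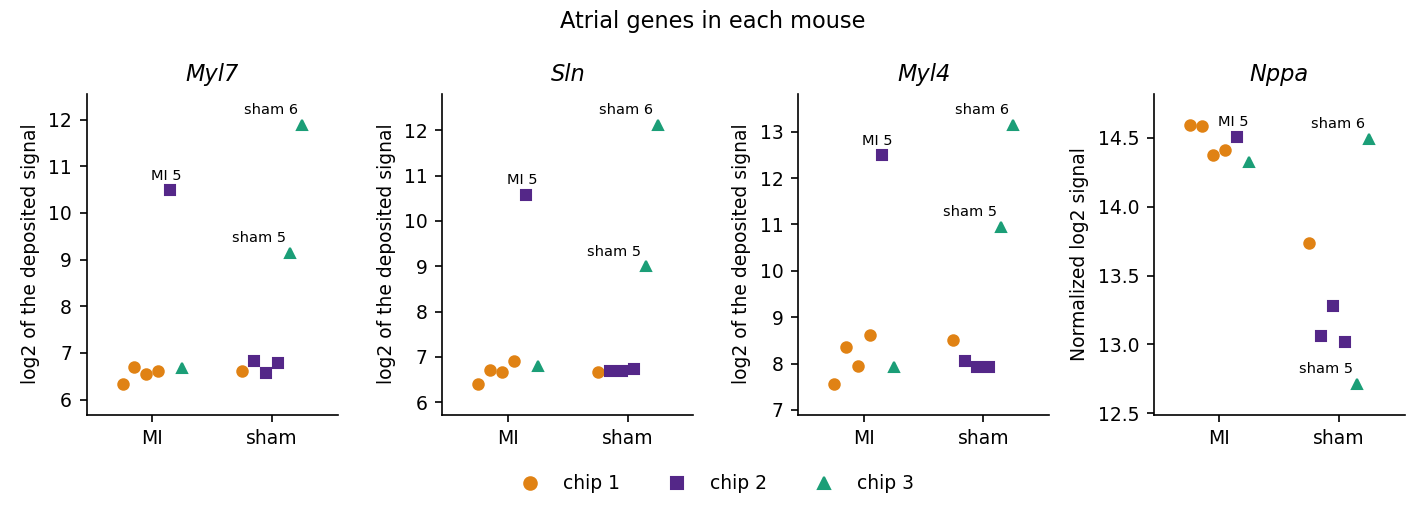
Signal of Myl7, Sln, Myl4 (log2 of the deposited signal) and Nppa (normalized log2 signal) in each of 6 MI and 6 sham mice, with symbols for the chip. MI replicate 5, sham replicate 5 and sham replicate 6 lie above the other mice for the first 3 genes, and for Nppa sham replicate 6 (14.49) lies among the MI mice.

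With the chip as a term of the linear model, 208 of 8236 genes differed between MI and sham at an adjusted p under 0.05 (limma, moderated test with Benjamini-Hochberg adjustment over all genes), which is 2.53% of the genes tested. In MI mice 129 were higher (1.57%) and 79 were lower (0.959%). The median difference was 0.72 among the higher genes and -0.51 among the lower ones, on the log2 scale, where 1 unit is a doubling. Of the 208, 29 were at least 2-fold higher and 7 at least 2-fold lower in MI. The MI and sham mice did not overlap in 157 of them, against 302 (3.67%) of all genes tested, and all 208 had the same sign within each of the 3 chips. Over all genes, 40.2% had 1 sign on all chips. The number of genes with an unadjusted p under 0.05 was 1289.

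Leaving the chip out of the model raised the count to 480 (3.53% of all genes higher and 2.29% lower), and 199 of the 208 were among them in the same direction. No gene differed between the chips themselves at an adjusted p under 0.05, and 967 did at an unadjusted p under 0.05. The count fell most when some single arrays were left out. It was 79 without MI replicate 5, 106 without sham replicate 1, 88 higher and 37 lower without MI replicate 6, 85 higher and 38 lower without sham replicate 5, and 157 to 209 without any of the other 8 mice. Without the 3 arrays with atrial genes it was 16, and 187 when the chip was left out as well, of which 138 were among the 208. With the level of the atrial genes as a further term it was 194. Without the 3 arrays, chip 2 has no MI array and chip 3 no sham array. Of the arrays left, 4 MI arrays lie on chip 1 and 3 sham arrays on chip 2. Counts without them and the chip, here and below, therefore cannot fully separate group from chip. None of the 208 changed sign in any of these fits.

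**Figure D2:**
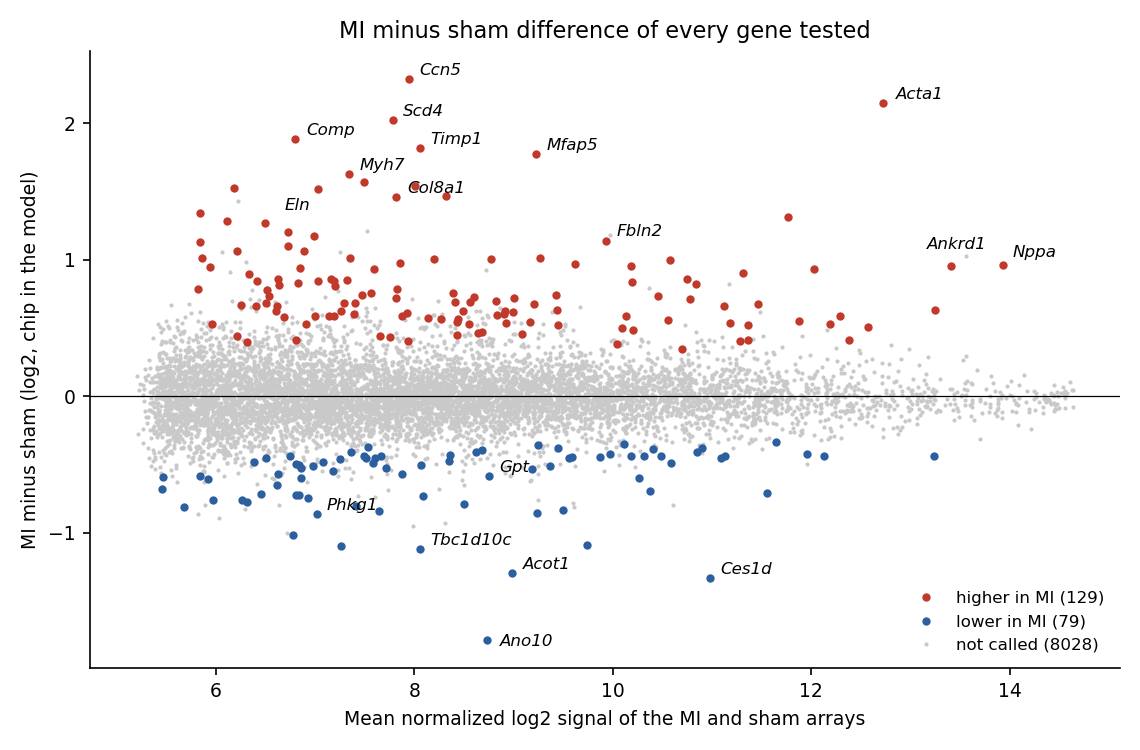
Difference between MI and sham (log2, chip in the model) against mean normalized log2 signal for 8236 genes. Red points are the 129 genes higher in MI, blue points the 79 lower in MI and grey points the genes that were not called. Acta1, at the upper right, combines a large difference with a bright signal.

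The 12 largest rises in MI were mostly genes of the matrix and of fibroblasts, with the fetal sarcomere genes Acta1 and Myh7 among them. Ccn5, a matricellular protein of the CCN family, had the largest rise. Its normalized log2 signal was 8.77, 9.18 and 10.11 in MI mice (lowest, median and highest of 6), against 5.78, 6.54 and 7.26 in sham mice. The lowest MI mouse lay above the highest sham mouse by more than 1 unit. The difference was 2.32 (SE 0.23, adjusted p = 3.44e-05), a 5.01-fold change, and it was 2.33, 2.48 and 2.24 within chips 1, 2 and 3.

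Scd4, a stearoyl-CoA desaturase that makes monounsaturated fatty acids, was 8.55, 8.78 and 9.21 in MI mice, against 5.79, 6.59 and 7.67 in sham mice, a difference of 2.02 (SE 0.34, adjusted p = 0.00398). A second probe of the gene differed by 1.79. Itgbl1, an integrin beta-like secreted protein, had little spread, with 8.18, 8.30 and 8.47 in MI mice and 6.45, 6.64 and 7.0 in sham mice (difference 1.57, SE 0.15, adjusted p = 2.90e-05). Pamr1, a peptidase-domain protein linked to muscle regeneration, differed by 1.52 (adjusted p = 0.00479), and its values within the chips ranged more widely, 2.29, 1.00 and 1.71.

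The 12 largest falls in MI lay mostly outside the lists. Ano10, a member of the anoctamin family of membrane proteins, was 7.50, 7.87 and 8.08 in MI mice, against 9.09, 9.59 and 10.16 in sham mice, without overlap. It was 3.45-fold lower in MI (difference -1.79, SE 0.21, adjusted p = 1.37e-04). Ces1d, a carboxylesterase that hydrolyses triglycerides and other esters, was among the brightest of these genes, at 9.82, 10.35 and 10.65 in MI mice and 11.22, 11.69 and 11.95 in sham mice (difference -1.33, SE 0.23, adjusted p = 0.00427).

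Ttll1, a tubulin polyglutamylase, differed by -1.09 (adjusted p = 0.00547), with 8.91 to 9.54 in MI mice and 9.77 to 10.59 in sham mice. Cep128, a centriolar protein, differed by -1.02 (adjusted p = 0.00143), and Dnaaf3, an assembly factor of ciliary dynein, by -0.84 (adjusted p = 0.00932). The groups did not overlap for any of these genes.

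The others of the 12 were Acot1, Tbc1d10c, Armh4, Phkg1, Lgals4, Cmss1 and Sorcs2. Tbc1d10c, a GTPase-activating protein known from lymphocytes, differed by -1.12 (adjusted p = 0.044), with overlapping groups, and without 11 of the 12 mice in turn it was no longer past the threshold. A second probe of Tbc1d10c differed by -0.345. Lgals4, a galectin best known from gut epithelium, differed by -0.86 (adjusted p = 0.042) and stayed past the threshold without only 2 of the 12 mice in turn. Armh4, Cmss1 and Sorcs2, the last a sorting receptor of neurons, differed by -1.10, -0.83 and -0.81 (adjusted p = 0.00482, 0.00659 and 0.00165).

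**Figure D3:**
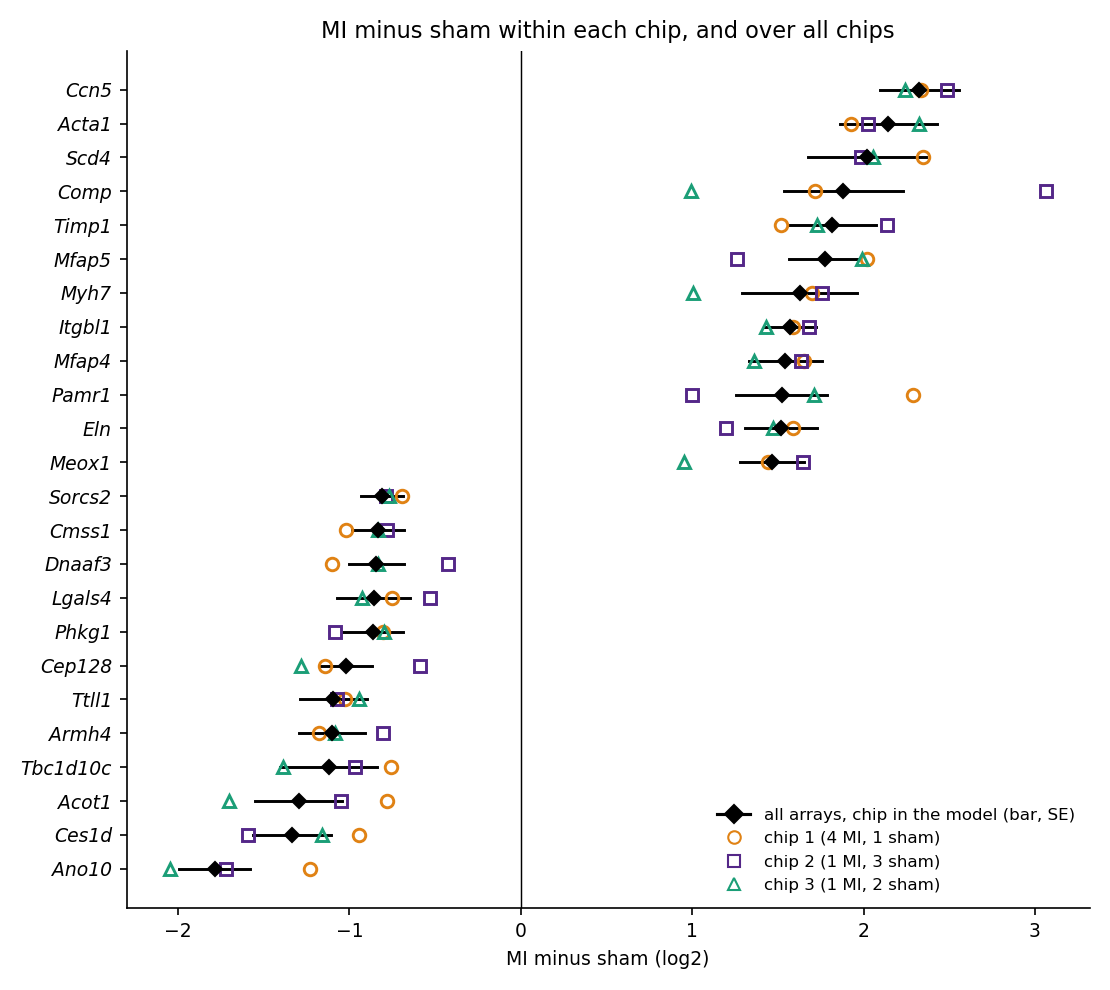
Difference between MI and sham (log2) of the 12 genes with the largest rise and the 12 with the largest fall. Diamonds with bars are the estimate over all arrays and its SE, and open symbols the difference of group means within each chip, which lie on the same side of 0 for every gene.

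Among the cardiomyocyte's fetal and stress genes, 16 were measured, of which 9 rose and none fell in MI, and the median difference was 0.65, against -0.01 over all genes. Of all genes tested, 1.57% were higher and 0.959% lower, and these shares and the median of -0.01 apply to every list below. The lists were chosen with earlier results of these data known, so their counts are a description and no test of enrichment. Acta1, skeletal alpha-actin, the fetal isoform of the thin filament, was 13.18, 13.74 and 14.06 in MI mice and 10.87, 11.79 and 12.42 in sham mice. The groups were apart, and the difference was 2.15 (SE 0.28, adjusted p = 5.38e-04), a 4.42-fold change. Myh7, beta-myosin heavy chain, the slow fetal motor of the mouse ventricle, was 7.24, 8.24 and 8.79 in MI mice, a wide spread, against 6.40, 6.55 and 6.75 in sham mice. It differed by 1.63 (SE 0.34, adjusted p = 0.0153).

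Ankrd1, a stress-induced protein that binds titin, was 13.69, 13.85 and 14.11 in MI mice, against 12.61, 12.96 and 13.18 in sham mice (difference 0.95, SE 0.15, adjusted p = 0.00165). The fold was nearly the same on each chip, at 0.88, 0.94 and 1.12 on the log2 scale. A second probe of Ankrd1 differed by 1.60. Xirp2, an actin-binding protein of the intercalated disc, differed by 0.53 (adjusted p = 0.0157). Rcan1, a feedback inhibitor of calcineurin, differed by 0.85 (adjusted p = 0.0302), and a second probe of it by 2.25. The other called members, Mybpc2 (the fast isoform of myosin-binding protein C), Ankrd23 and Uchl1, differed by 0.84, 0.71 and 0.59 (adjusted p = 0.0283, 0.0378 and 0.0422) and were named after their values were seen. Ankrd23 stayed past the threshold in 4 and Uchl1 in 3 of 12 fits that left out 1 mouse. Without the chip in the model, Ankrd23 did not pass the test (adjusted p = 0.1). Uchl1 is also a member of the list of Schwann cell and neuronal genes.

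Nppa, atrial natriuretic peptide, was uniform in MI mice, at 14.32, 14.46 and 14.60, and spread in sham mice, at 12.71, 13.17 and 14.49. The highest values of Nppb (14.52) and Myh6 (14.53) were close to that of Nppa (14.60). Whether the signal scale is limited at this level was not tested. The highest sham mouse was replicate 6, the one with the most Myl7 and Sln, and the other 5 lay below every MI mouse. The difference was 0.96 (SE 0.23, adjusted p = 0.0384), past the threshold in 4 of 12 fits without 1 mouse. It was 0.74 without the 3 arrays with atrial genes (adjusted p = 0.059) and 1.18 when the chip was left out as well (adjusted p = 0.00174). Nppa is itself abundant in atria, and the part of atrial RNA in its values was not tested further. Nppb, the brain natriuretic peptide gene, was 13.54, 14.13 and 14.52 in MI mice and 11.32, 13.06 and 14.03 in sham mice, with overlap. Its difference of 1.02 (SE 0.39) was as large as that of Nppa but did not pass the test (adjusted p = 0.196).

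The count of 9 called fetal and stress genes was 8 without the chip in the model. It was 2 without sham replicate 1 or MI replicate 5, 3 without MI replicate 6 and 5 without sham replicate 5 or sham replicate 6. Without the 3 arrays with atrial genes it was 0, and 7 when the chip was left out as well.

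Upstream sequences of members of this group are shown because they hold elements that muscle gene promoters are known for: the MCAT core, with the letters CATTCC on either strand, which TEAD factors bind, and the CArG box, which serum response factor binds. They are the 250 bases before the transcription start in RefSeq (GRCm38.p6), read 5′ to 3′ on the strand of the gene, with matches in capitals.

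Acta1, chr8:123894776-123895025, minus strand: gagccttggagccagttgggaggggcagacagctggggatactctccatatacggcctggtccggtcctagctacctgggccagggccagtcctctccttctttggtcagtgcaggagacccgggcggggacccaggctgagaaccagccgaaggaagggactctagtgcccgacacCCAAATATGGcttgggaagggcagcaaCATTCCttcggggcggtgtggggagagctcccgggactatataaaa
Ankrd1, chr19:36119845-36120094, minus strand: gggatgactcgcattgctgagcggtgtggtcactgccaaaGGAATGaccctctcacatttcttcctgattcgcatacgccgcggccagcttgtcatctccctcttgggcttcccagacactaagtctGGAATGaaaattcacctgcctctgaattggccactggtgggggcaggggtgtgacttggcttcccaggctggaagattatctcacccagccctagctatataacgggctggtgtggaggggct
Mybpc2, chr7:44524670-44524919, minus strand: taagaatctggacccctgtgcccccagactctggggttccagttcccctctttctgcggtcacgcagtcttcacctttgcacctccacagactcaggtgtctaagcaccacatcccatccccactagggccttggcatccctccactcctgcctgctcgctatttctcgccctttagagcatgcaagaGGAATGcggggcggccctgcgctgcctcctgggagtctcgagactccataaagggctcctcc

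Within these windows, a CArG box of Acta1 began 73 bases before the start and an MCAT core 46 bases before it. Ankrd1 held 2 MCAT cores, at 210 and 123 bases, and Mybpc2 held 1, at 62 bases. Of other members of the group, Nppb and 1 of 2 windows of Myh7 held an MCAT core, at 105 and 201 bases. The windows of Nppa and Xirp2, both of Rcan1 and the other of Myh7 held neither element. The MCAT core was present in 12.6% of all 32851 RefSeq windows of this length, in 10.9% of the 8670 windows of tested genes, in 20 of 118 windows (16.9%) of the 97 genes higher in MI that matched by symbol, and in 4 of 70 windows (5.7%) of the 54 lower genes. The CArG box was present in 1.5% of all windows, 3 of the 118 and none of the 70. Windows of 1 gene can overlap, and a match of letters is no site of binding.

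**Figure D4:**
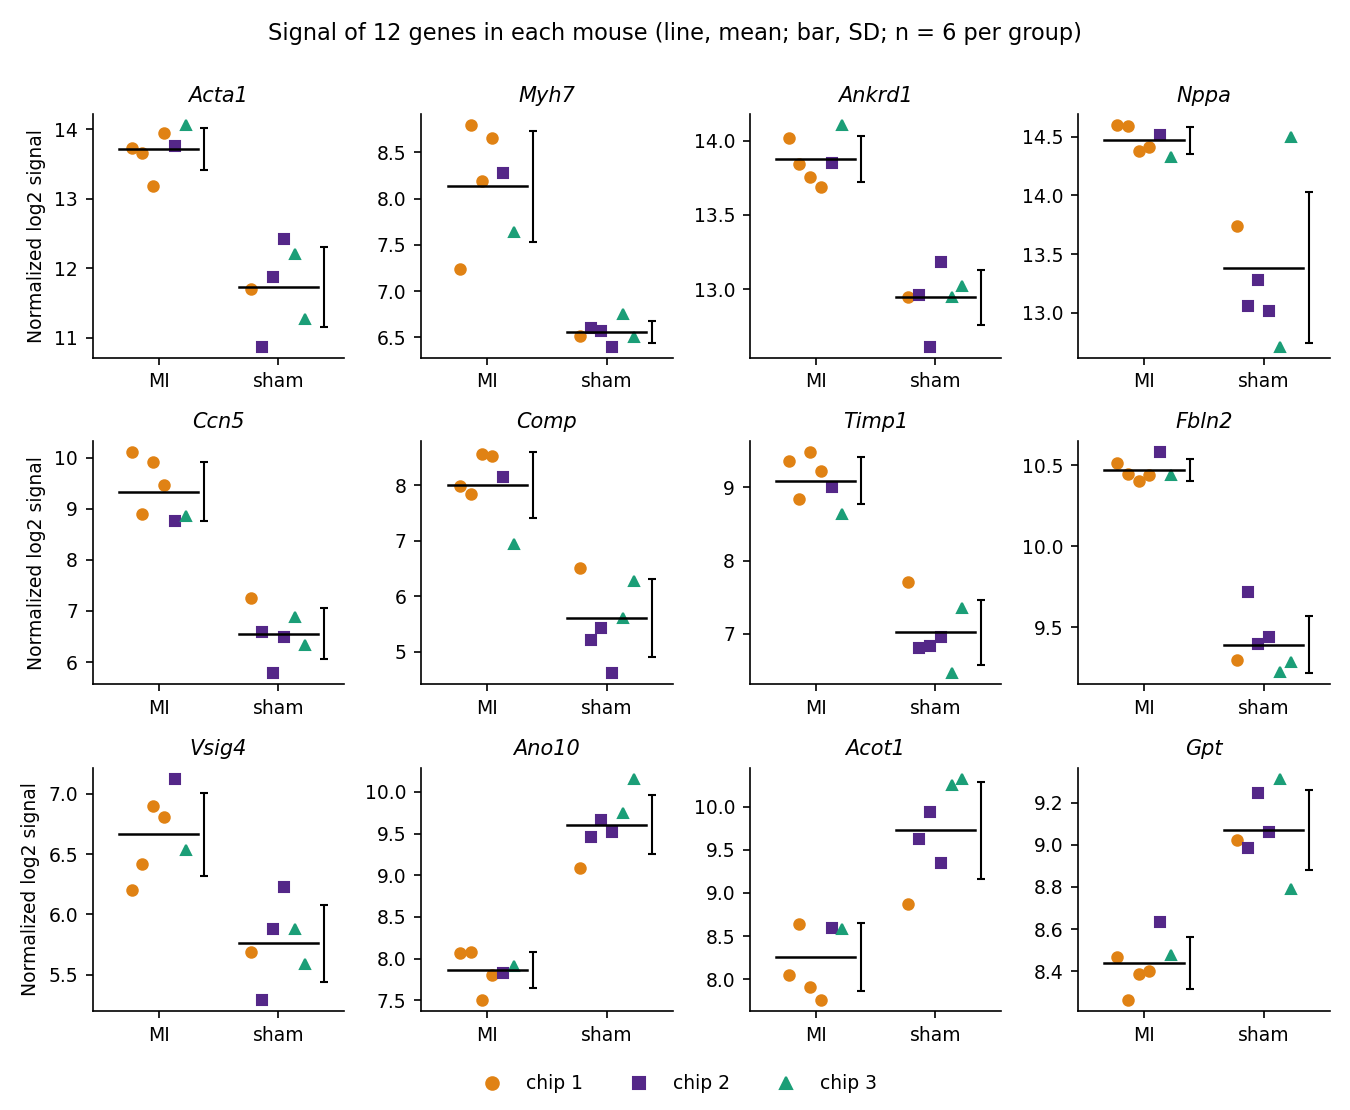
Normalized log2 signal of 12 genes in each of 6 MI and 6 sham mice, with symbols for the chip, a line for the mean and a bar for the SD. In Acta1, Myh7, Ankrd1, Ccn5, Comp, Timp1 and Fbln2 every MI mouse lies above every sham mouse, in Ano10, Acot1 and Gpt every MI mouse lies below, and in Nppa and Vsig4 the groups overlap.

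Proteins of the adult sarcomere were not called. None of 16 measured passed the test, and their differences ran from -0.20 to 0.30 around a median of -0.01. Myh6, alpha-myosin heavy chain, the adult motor, was 14.26, 14.39 and 14.48 in MI mice and 14.11, 14.30 and 14.53 in sham mice, a difference of 0.01 (SE 0.08). These values lie at the top of the signal range, and a second probe of Myh6 differed by -0.22. Tpm1, alpha-tropomyosin, had the smallest p of the list, with a difference of 0.30 (adjusted p = 0.111).

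In calcium handling, 1 of 15 measured genes was called, against 2.53% of all genes tested. In this list and later ones, 1 or a few calls describe those genes and not the list. Hrc, the histidine-rich calcium-binding protein of the sarcoplasmic reticulum, was 12.94, 12.99 and 13.18 in MI mice, against 13.30, 13.43 and 13.66 in sham mice, without overlap (difference -0.44, SE 0.09, adjusted p = 0.0136). Atp2a2, the calcium pump SERCA2, differed by -0.04 (SE 0.10), and its further probes by -0.265 to -0.067. The counter-ion channel Tmem38a and calsequestrin, Casq2, differed by -0.35 and 0.30 (adjusted p = 0.0619 and 0.154), and both passed the test when the chip was left out (adjusted p = 0.0123 and 0.0257). Tmem38a also passed it with the authors' log2 values and the chip kept (adjusted p = 0.0235).

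Subunits of potassium and sodium channels lay mostly below sham. Of 15 measured, 12 were below 0, with a median of -0.26, but none passed the test with the chip in the model, while 4 were lower without it and 2 with 75th percentile scaling and the chip. Kcnv2, a modifier subunit of voltage-gated potassium channels, had no overlap, with 5.62, 6.31 and 6.48 in MI mice and 6.75, 7.13 and 8.17 in sham mice. Its difference was -1.0 (SE 0.26, adjusted p = 0.0527). Kcnd2, the pore of the transient outward current, differed by -0.74 (adjusted p = 0.0712) and Scn4b, a sodium channel beta subunit, by -0.69 (adjusted p = 0.0673). Kcnj3, a subunit of the acetylcholine-gated channel and a gene best expressed in the atria, differed by -0.48 (adjusted p = 0.0802). Gja1, connexin 43 of the gap junctions, differed by -0.02 (SE 0.13).

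In the dystrophin complex and cytoskeleton, 2 of 25 measured genes were higher and 1 was lower. Sgca, alpha-sarcoglycan of the sarcolemma, was 10.70 to 11.12 in MI mice and 11.17 to 11.37 in sham mice (difference -0.45, adjusted p = 0.0137). Itga7, the integrin that joins laminin to the muscle cell, also differed by -0.46 without overlap (adjusted p = 0.0171). Actn4, a non-muscle alpha-actinin, and Vim, vimentin of mesenchymal cells, differed by 0.47 and 0.59 (adjusted p = 0.0234 and 0.0313). The count of 3 was 1 without sham replicate 1, and 0 without MI replicate 5 or without the 3 arrays with atrial genes, with or without the chip.

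Matrix glycoproteins and proteoglycans were the list with the most calls: 11 of 25 measured genes were higher in MI and none was lower, with a median of 0.34. Of all genes tested, 1.57% were higher. Fbln2, fibulin 2, which links elastic fibres to basement membranes, had the smallest p of the list. It was 10.40, 10.44 and 10.58 in MI mice, a spread of less than 0.2 unit, against 9.22, 9.35 and 9.71 in sham mice (difference 1.14, SE 0.09, adjusted p = 2.98e-06). Bgn, the proteoglycan biglycan, was 12.30, 12.49 and 12.69 in MI mice and 11.33, 11.53 and 11.81 in sham mice (difference 0.93, SE 0.10, adjusted p = 7.63e-05). For both genes the values within the chips lay within 0.3 unit of each other.

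The microfibril proteins Mfap5 and Mfap4 differed by 1.77 and 1.54 (adjusted p = 1.57e-04 and 7.69e-04). Mfap5 was 9.65 to 10.73 in MI mice and 7.90 to 8.84 in sham mice, and on no chip did its difference fall under 1.26. Eln, elastin, differed by 1.52 (SE 0.21, adjusted p = 8.14e-04), with 7.08, 7.42 and 8.47 in MI mice and 5.86, 6.39 and 7.13 in sham mice. Its groups overlapped, and without the chip in the model the difference was 1.18 (adjusted p = 0.0209). Comp, cartilage oligomeric matrix protein, was 6.94, 8.07 and 8.55 in MI mice and 4.61, 5.52 and 6.51 in sham mice. It differed by 1.88 (SE 0.35, adjusted p = 0.00764), and its values within the chips were the least even of these genes, at 1.72, 3.06 and 0.99. The sham signals of Comp were low, and how far this bears on the size of its difference was not tested. The count of 11 was 6 without MI replicate 5, 5 without the 3 arrays with atrial genes and 10 without them and the chip.

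Of the collagens, 4 of the basement membrane, network or fibril-associated types rose, while the fibrillar collagens had values above 0 that did not pass the test. Col8a1, a short-chain collagen of vessels and scars, was 8.19, 8.59 and 8.73 in MI mice and 6.99, 7.14 and 7.18 in sham mice. The sham mice lay within 0.2 unit of each other, and the difference was 1.46 (SE 0.12, adjusted p = 7.48e-06). A second probe of the gene differed by 1.79. Col16a1 and Col14a1, which associate with fibrils, differed by 0.93 and 0.81 (adjusted p = 0.00825 and 0.0204), and Col4a1 of the basement membrane by 0.52 (adjusted p = 0.0339). A second probe of Col14a1 differed by only 0.24. All 10 measured members of this list were above 0 and 4 were called. The 4 were 2 without sham replicate 1 or MI replicate 5, and 1 without the 3 arrays with atrial genes.

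Of 9 fibrillar collagens listed, 4 were measured. All 4 were above 0, with a median of 0.52, and none was called. Col5a1, a regulator of fibril diameter, differed by 0.62 (SE 0.16, adjusted p = 0.0502). It lay at the threshold: without the chip its adjusted p was 0.0186, and with the chip it was 0.042 on the authors' log2 values and 0.0379 with 75th percentile scaling. Col1a1, the main collagen of scars, was 7.0, 7.39 and 7.75 in MI mice and 5.93, 7.0 and 7.70 in sham mice, with overlap (difference 0.72, SE 0.24, adjusted p = 0.136), and without sham replicate 2 it passed the test (difference 0.88, adjusted p = 0.0188). Col3a1 and Col1a2 differed by 0.43 and 0.30 (adjusted p = 0.314 and 0.557). The median signal of Col1a2 was 5.65 in MI mice and 5.43 in sham mice, among the dimmer genes tested. Col3a1 was also dim, at 6.82 and 6.57. How far the low signal of these probes bears on the missing calls was not tested. Within chips, Col3a1 differed by 1.39 on chip 1, 0.05 on chip 2 and -0.03 on chip 3. On chip 1 the only sham array, replicate 1, had the lowest Col3a1 of all sham mice, at 5.55, and without it the difference was -0.01.

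Of 16 measured enzymes and partners of collagen assembly, 5 were higher, none was lower and the median was 0.25. Loxl1 and Lox, which crosslink elastin and collagen, differed by 0.95 and 1.13 (adjusted p = 5.47e-04 and 0.0132). Loxl1 was 10.43, 10.68 and 11.01 in MI mice and 9.45, 9.60 and 10.04 in sham mice. Sparc, a collagen-binding chaperone, and Pcolce2, an enhancer of procollagen cleavage, differed by 0.68 and 0.72 (adjusted p = 0.00161 and 0.00146), also without overlap. The count of 5 was 3 without sham replicate 1, 1 without the 3 arrays with atrial genes and 5 without them and the chip.

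Of 17 measured metalloproteinases and inhibitors, 16 were above 0 and 3 were called, against 2.53% called of all genes tested. Timp1, the inducible tissue inhibitor of metalloproteinases, was 8.63, 9.12 and 9.48 in MI mice and 6.46, 6.89 and 7.71 in sham mice. It was 3.52-fold higher in MI (difference 1.82, SE 0.25, adjusted p = 8.15e-04), and a second probe differed by 1.70. Mmp2, gelatinase A, and Mmp23 rose less, by 0.48 and 0.62 (adjusted p = 0.0137 and 0.0279). The count of 3 was 1 without sham replicate 1 or MI replicate 5, and 0 without the 3 arrays with atrial genes.

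Of 9 measured genes of activated fibroblasts, 6 were higher, with a median of 1.13, and of 18 genes of resident fibroblasts, 4 were higher and 4 lay below 0, with a median of 0.28. The share of higher genes over all genes tested was 1.57%. None of the 6 defining markers of resident fibroblasts, such as Pdgfra, was called (differences of 0.05 to 0.64). Besides Ccn5, Comp, Col8a1, Lox and Fn1 (fibronectin, named after its value was seen, difference 0.68, adjusted p = 0.038, past the threshold in 4 of 12 fits without 1 mouse), the activated list holds Meox1, a homeobox factor of activated fibroblasts. Meox1 was 8.49, 9.03 and 9.43 in MI mice and 7.33, 7.52 and 8.16 in sham mice (difference 1.47, SE 0.19, adjusted p = 4.03e-04). Acta2, smooth muscle alpha-actin, which marks myofibroblasts as well as smooth muscle, went the other way, with 11.35, 11.75 and 12.26 in MI mice and 11.68, 12.18 and 12.63 in sham mice. Its difference of -0.49 did not pass the test (adjusted p = 0.293), and the gene was named after its value was seen.

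Among resident markers, Cd248 (endosialin) and Pi16 (peptidase inhibitor 16) differed by 0.98 and 0.97 (adjusted p = 2.48e-04 and 0.00476). The groups were apart for both, and the other called members were Mfap5 and Vim. Without the 3 arrays with atrial genes the counts were 3 of 9 and 2 of 18, and 5 of 9 and 5 of 18 without them and the chip.

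In the TGF-beta, BMP and activin list, 3 of 20 measured genes were higher and none was lower, against 1.57% and 0.959% of all genes tested. Fstl1, a secreted follistatin-like protein, was 9.51, 9.77 and 9.90 in MI mice and 8.65, 8.75 and 9.05 in sham mice (difference 1.01, SE 0.11, adjusted p = 1.28e-04). Ccn2, connective tissue growth factor and a target of TGF-beta, was 12.12, 12.34 and 13.21 in MI mice and 10.61, 10.97 and 11.46 in sham mice (difference 1.31, SE 0.27, adjusted p = 0.014). Nbl1, a secreted BMP antagonist, differed by 0.78 (adjusted p = 0.0279). No TGF-beta ligand or receptor was among the calls, and the count of 3 was 1 without MI replicate 5 or without the 3 arrays with atrial genes.

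With Ccn5 and Ccn2, Igfbp7, a binding protein of insulin-like growth factors, was the third called gene of 14 in the IGF and CCN list (difference 0.59, adjusted p = 0.0236), and the 3 were also 1 without MI replicate 5. Of 10 integrin genes, Itgbl1 and Itga11, the collagen receptor of fibroblasts, were higher (Itga11 difference 0.83, adjusted p = 0.00831) and Itga7 was lower. The share called over all genes tested was 2.53%.

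Serpinf1 (pigment epithelium-derived factor) and Sulf1 (a heparan sulfatase) led the angiogenesis list, where 3 of 22 were called (against 2.53% of all genes tested), and none without the 3 arrays with atrial genes. Serpinf1 was 10.81, 11.15 and 11.52 in MI mice and 9.78, 9.99 and 10.21 in sham mice (difference 1.00, SE 0.13, adjusted p = 5.38e-04). Sulf1 and Ptgis, prostacyclin synthase, differed by 0.69 and 0.70 (adjusted p = 0.00365 and 0.0162). Anxa3 and S100a11, both calcium-dependent membrane partners, differed by 0.55 and 0.41 (adjusted p = 0.014 and 0.0239). With Serpinf1 and Anxa5 (annexin A5, named after its value was seen), they were the 4 called among 19 serpins, annexins and S100 proteins, a count that was 1 without sham replicate 1 and 2 without MI replicate 5, MI replicate 6 or sham replicate 5.

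Macrophage genes lay above sham with few exceptions, though few passed the test. Of 28 measured, 27 were above 0, with a median of 0.41, and 5 were called with the chip in the model and 12 without it. Over all genes tested, the median was -0.01 and 2.53% were called with the chip in the model. Vsig4, a complement receptor of tissue-resident macrophages, was 6.20, 6.67 and 7.12 in MI mice and 5.29, 5.79 and 6.23 in sham mice, with an overlap of less than 0.1 unit. It differed by 1.06 (SE 0.17, adjusted p = 0.00303).

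F13a1, coagulation factor XIII subunit A, and Lyz1, a lysozyme, differed by 0.61 and 0.51 (adjusted p = 0.0135 and 0.0154), both without overlap. Lyz2, the lysozyme of myeloid cells, had a median of 11.45 in MI mice and a median of 10.79 in sham mice (difference 0.66, adjusted p = 0.0297). Lyz1 and Lyz2 are near-identical, so a probe of one may bind transcripts of the other. Adgre1, a surface receptor of mature macrophages, differed by 0.68 (adjusted p = 0.0492), was named after its value was seen and stayed past the threshold in 3 of 12 fits without 1 mouse. The list's mean level was 7.93 to 8.62 in MI mice and 7.43 to 7.88 in sham mice. The count of 5 was 2 without sham replicate 1 or MI replicate 5, 3 without MI replicate 4 or sham replicate 5, 0 without the 3 arrays with atrial genes and 6 without them and the chip.

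Endothelial genes were not called (0 of 23, with 19 above 0 and a median of 0.22), nor were genes of smooth muscle and pericytes (0 of 17, median 0.02, and -0.09 without the chip), antigen presentation (0 of 18) and the interferon response (0 of 21). Ptprb, a phosphatase of endothelial cells, had the smallest p of the first list, with a difference of 0.69 (adjusted p = 0.101), and within chip 3 it was 1.60, against 0.55 and 0.25 on chips 1 and 2. Of 23 cytokines, chemokines and receptors, Cxcr4, the receptor of the chemokine Cxcl12, was higher (difference 0.74, adjusted p = 0.0354), and Ccl11, eotaxin, was lower (difference -0.59, adjusted p = 0.0307). Neither was called without the 3 arrays with atrial genes and the chip. Of 15 complement and coagulation genes, F13a1 and Cd55, the decay-accelerating factor of complement, were higher (Cd55 difference 0.53, adjusted p = 0.0187).

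Genes of energy metabolism mostly lay slightly below sham, with few calls, where 0.959% of all genes tested were lower. Of 33 measured genes of fatty acid uptake and beta-oxidation, 27 were below 0, with a median of -0.13, and 3 were lower. Acot1, a cytosolic acyl-CoA thioesterase and a PPAR-alpha target, was 7.76, 8.32 and 8.63 in MI mice and 8.87, 9.78 and 10.32 in sham mice. It was 2.46-fold lower in MI (difference -1.30, SE 0.25, adjusted p = 0.0108), with a second probe at -0.98. Acot1 has close paralogs whose transcripts its probes may share. Crat, carnitine acetyltransferase of the mitochondria, was 10.56, 10.63 and 10.76 in MI mice and 10.87, 11.04 and 11.12 in sham mice, a small change with little spread (difference -0.41, SE 0.09, adjusted p = 0.0162). Its further probes differed by -0.32 to -0.03.

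Acot7, another thioesterase, differed by -0.34 (adjusted p = 0.0238), and Slc27a1, the fatty acid transporter FATP1, by -0.57 (adjusted p = 0.0672). Further probes of Acot7 differed by -0.37 to -0.07. The count of 3 was 1 without sham replicate 1 or MI replicate 5, 0 without the 3 arrays with atrial genes, 3 without them and the chip, and 5 with 75th percentile scaling. No enzyme of the oxidation spiral itself was among the calls.

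Of 24 genes of pyruvate entry and the citrate cycle, 21 were below 0, with a median of -0.14, and 1 was called. Pdk2, the kinase that switches off pyruvate dehydrogenase, was 8.59, 9.12 and 9.27 in MI mice and 9.39, 9.71 and 9.93 in sham mice (difference -0.51, SE 0.13, adjusted p = 0.0424). It stayed past the threshold in only 3 of 12 fits that left out 1 mouse, and was not called without the 3 arrays with atrial genes and the chip. Pdk4, the inducible kinase of the same family, was 10.44, 11.35 and 12.29 in MI mice and 10.39, 10.85 and 12.07 in sham mice, a wide spread in both groups (difference 0.82, SE 0.35, adjusted p = 0.262). Subunits of the respiratory chain lay close to sham: 28 of 34 for complex I and 24 of 33 for complexes III to V were below 0, with medians of -0.08 and -0.06 and no calls. The subunits with the smallest p, Ndufa8 and Atp5g2, differed by -0.13 and -0.25 (adjusted p = 0.427 and 0.173).

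Amino acid catabolism had 18 of 21 genes below 0, a median of -0.18 and 1 call. Gpt, alanine aminotransferase, which links alanine to pyruvate, was 8.26, 8.44 and 8.63 in MI mice and 8.79, 9.04 and 9.31 in sham mice. It was lower in MI without overlap (difference -0.58, SE 0.11, adjusted p = 0.00744), and it stayed past the threshold without any of the 12 mice. Kyat3, a kynurenine aminotransferase, differed by -0.44 (adjusted p = 0.0538).

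In glycolysis and glycogen, 2 of 26 genes were lower. Phkg1, the catalytic subunit of muscle phosphorylase kinase, was 6.35, 6.53 and 7.05 in MI mice and 7.04, 7.47 and 7.63 in sham mice (difference -0.86, SE 0.18, adjusted p = 0.0154), with an overlap of about 0.01 unit. Slc2a4, the insulin-regulated glucose transporter GLUT4, was 10.34 to 10.81 in MI mice and 10.89 to 11.34 in sham mice (difference -0.38, adjusted p = 0.0464). It was past the threshold without only 2 of the 12 mice in turn. Ckb, brain-type creatine kinase, was the only call of 13 genes of creatine and adenylate energy transfer, and it was higher, with 11.90 to 12.35 in MI mice and 11.38 to 11.82 in sham mice (difference 0.55, adjusted p = 0.0187).

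None of 19 nuclear regulators of these pathways was called. Ppargc1a, PGC-1 alpha, was 8.51, 9.30 and 10.34 in MI mice and 8.48, 9.35 and 10.57 in sham mice (difference 0.04, SE 0.34), so that its spread within each group was close to 2 units. Rxrg and Perm1 differed by -0.51 and -0.31 (adjusted p = 0.16 and 0.186). Ucp3, an uncoupling protein that responds to fatty acids, differed by 0.01 (SE 0.43), with 5.58 to 7.81 in MI mice and 5.92 to 7.67 in sham mice.

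**Figure D5:**
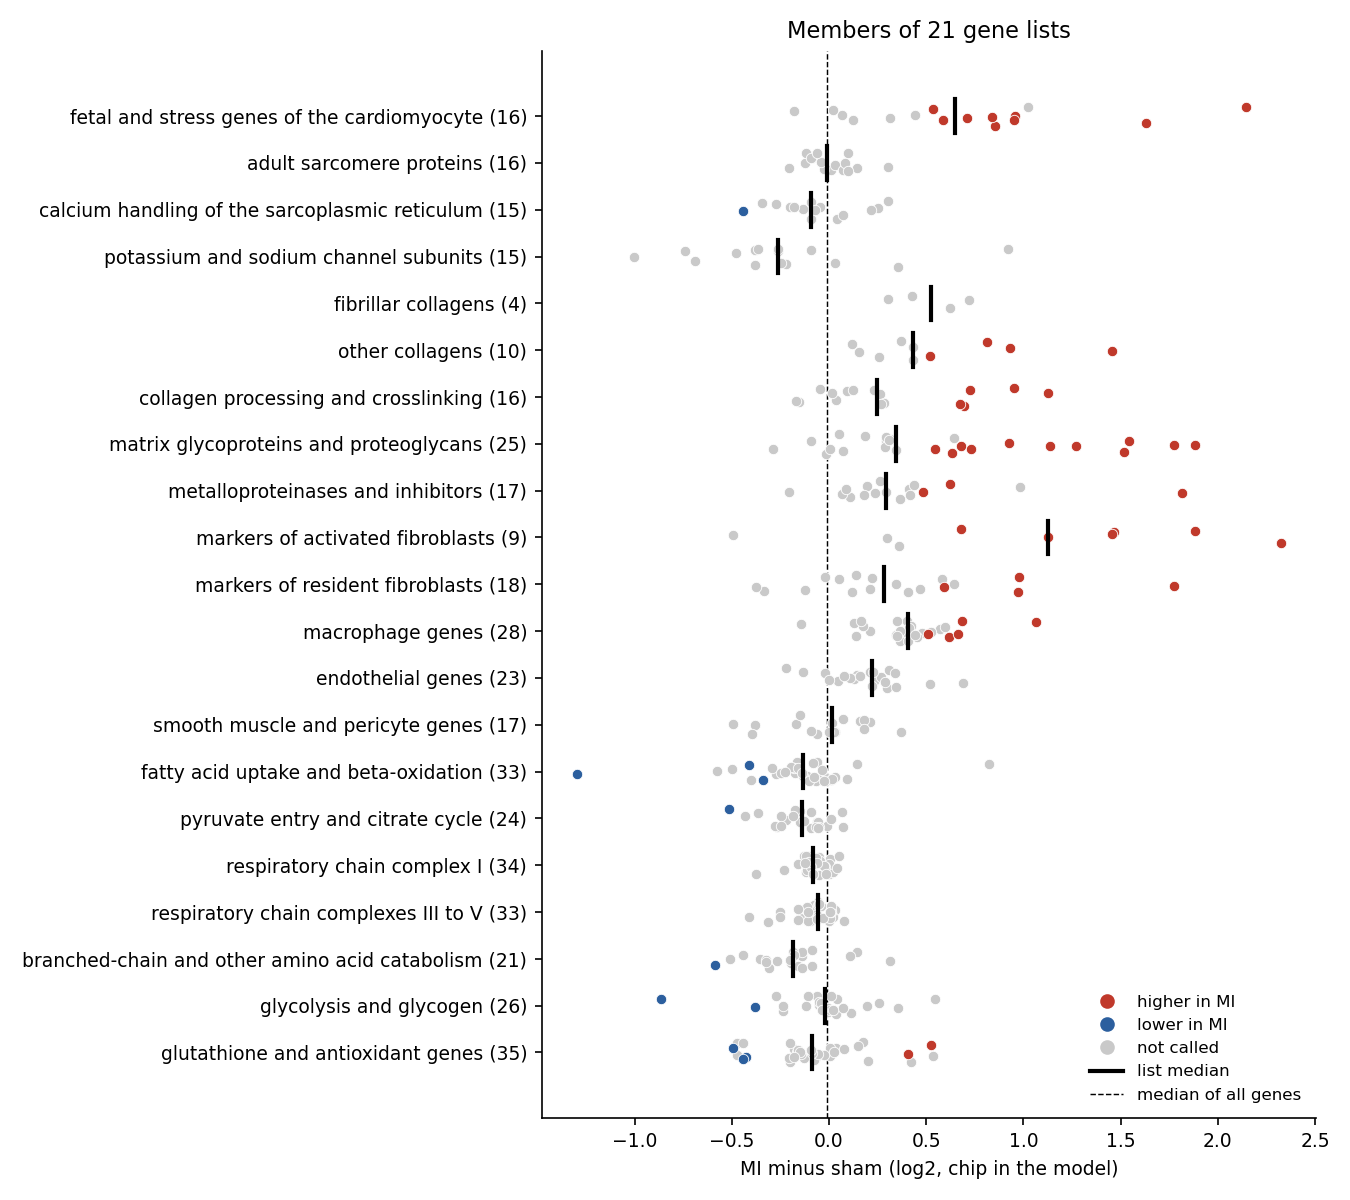
Difference between MI and sham (log2, chip in the model) of each measured member of 21 gene lists, with the number measured in brackets. Red and blue points are members higher and lower in MI at an adjusted p under 0.05, grey points were not called, black bars are list medians and the dashed line is the median of all genes (-0.01).

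Genes of glutathione and antioxidant defence moved in both directions: of 35 measured, 2 were higher and 3 were lower, against 1.57% and 0.959% of all genes tested. Gpx1, the main cytosolic glutathione peroxidase, was 12.18, 12.54 and 12.86 in MI mice and 11.74, 11.87 and 11.99 in sham mice (difference 0.53, SE 0.11, adjusted p = 0.0166). Gpx7, a peroxidase of the endoplasmic reticulum, differed by 0.40 (adjusted p = 0.0326). The lower genes were glutathione S-transferases. Gstm1 was 10.05, 10.34 and 10.61 in MI mice and 10.75, 10.86 and 10.92 in sham mice (difference -0.49, SE 0.10, adjusted p = 0.011), and the mitochondrial Gstk1 differed by -0.42 (adjusted p = 0.0163). Gstt1, named after its value was seen, differed by -0.44 (adjusted p = 0.0441) and stayed past the threshold in 3 of 12 fits without 1 mouse. The groups of all 5 genes did not overlap. The count of 5 was 1 without sham replicate 1, 0 without MI replicate 5, 3 without MI replicate 6 or sham replicate 5, 0 without the 3 arrays with atrial genes and 5 without them and the chip.

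Of 7 measured genes of the renin-angiotensin system, Ace, angiotensin-converting enzyme, was higher, with 7.13, 7.58 and 7.89 in MI mice and 6.46, 6.84 and 7.03 in sham mice (difference 0.86, SE 0.17, adjusted p = 0.011). Ace stayed past the threshold in 10 of 12 fits without 1 mouse. Without the 3 arrays with atrial genes and the chip, no gene of this list was called. Agtr1a, the receptor that valsartan blocks, was 9.71, 9.91 and 10.08 in MI mice and 10.10, 10.23 and 10.33 in sham mice. The groups did not overlap, but the difference of -0.33 (SE 0.09) did not pass the test with the chip in the model (adjusted p = 0.0702). It passed without the chip (adjusted p = 0.0271) and, with the chip kept, on the authors' log2 values (adjusted p = 0.0235) and with 75th percentile scaling (adjusted p = 0.0379). Within chips it was -0.41, -0.04 and -0.52.

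Single calls in other lists were Pde1c, a calcium-activated phosphodiesterase, of 21 adrenergic and G-protein genes (difference 0.61, adjusted p = 0.0166), and Hspa2, a heat shock protein of the 70 family, of 19 heat shock genes (difference 0.54, adjusted p = 0.0422, past the threshold in 4 of 12 fits without 1 mouse). Prkcd, protein kinase C delta, was called beside Rcan1 among 23 genes of calcineurin and hypertrophic kinases (difference 0.44, adjusted p = 0.0378). None of 14 cell cycle genes was called, with 11 above 0 and a median of 0.26, and Mcm5, a replication licensing factor, had the smallest p (difference 0.39, adjusted p = 0.146).

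At the level of probes, 267 of 13609 that passed the filter were called, 176 higher and 91 lower. They include 29 of 1712 probes without 1 gene symbol, which are not named here. Of 67 called genes with further probes, 4 had a further probe of the opposite sign. No called gene was undetected on a whole group of arrays, and 195 of the 208 were detected on all 12.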

How the data were processed

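Total RNA was hybridised to Illumina MouseWG-6 v2 bead arrays. The authors deposited, per array, a bead signal intensity from the scanner software, not normalized, with a detection p-value for each probe. The authors also deposited log2 values made with lumi under R 3.0.1 (variance stabilization and robust spline normalization), used here as an alternative. Background was removed from the intensity with neqc, which infers it from the detection p-values, an offset of 16 was added, and values were quantile normalized and put on the log2 scale (limma 3.58.1, R 4.3.3). Of 45281 probes, those with a 33rd percentile of signal of at least 125 and 1 gene symbol were kept, and the brightest probe stood for a gene. A linear model with group and chip was fitted to all 17 arrays, moderated by limma, and p-values for MI minus sham were adjusted by Benjamini-Hochberg over 8236 genes. The study's methods used a pairwise t-test without the chip, after a permutation F test over the 3 groups. The t-test alone is an alternative here. The number of arrays limits the precision.

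The members and gene lists were chosen with earlier results of these data known. Named genes were the 12 largest rises and 12 largest falls among called genes, up to 4 members of each list with the smallest p, and a fixed set of heart genes, and any other named gene is said to be chosen after its value was seen. Other settings were the chip left out or as a random block, a replicate block, the MI and sham arrays alone, other background, scaling and filters, other choices of probe, array weights and each array left out. Gene symbols came from the platform annotation, in which 10378 probes had none and 18 had several. Figures were drawn with matplotlib 3.10.9.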

Additional observations from a re-analysis of the deposited data

Results flagged for a closer look

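Of 270 groups of 6 mice examined, 15 held a mouse far from the others, where chance gives about 1 in 20, or 14. The gap to the nearest mouse, as a share of the group's range, was above Dixon's 95% critical value for 6 samples in each. Among MI mice, replicate 1 was the highest for Sorcs2 (5.511, nearest 5.314) and the lowest for Pdk2 (8.591, nearest 9.100) and Kyat3 (7.419, nearest 7.745). The same array had the fewest detected probes, 13929 against 14889 in the nearest MI mouse. MI replicate 4 was the lowest for Actn4 (8.656, nearest 8.891).

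Among sham mice, replicate 2 was the lowest for Cmss1 (9.338, nearest 9.989) and the highest for Sorcs2 (6.260, nearest 6.063), Rgs5 (8.432, nearest 7.870), Hspa2 (8.572, nearest 8.172) and Meox2 (8.644, nearest 8.229). Replicate 5, which carried atrial genes, was the lowest for Vim (9.578, nearest 9.878) and Ptgis (8.104, nearest 8.354). Replicate 1 was the lowest for Col3a1 (5.550, nearest 6.383) and the highest for Mcm5 (6.769, nearest 6.429), and replicate 4 the lowest for Crat (10.870, nearest 11.034).

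The filter on dim probes removed some that were detected on every array of 1 group and on none of the other. The Nox4 probe, for a hydrogen peroxide-producing NADPH oxidase of fibroblasts and muscle, had signals from 134.4 up in MI mice and at most 120.5 in sham mice. Vgll4, a TEAD cofactor, had signals from 120.1 up in MI mice and at most 127.4 in sham mice. The probe for 1500009L16Rik had signals from 109.3 up in MI mice and at most 124.3 in sham mice, so for it and Vgll4 the signals overlap although the detection calls do not. In the reverse direction, Rgs7, a regulator of G-protein signalling, had signals of at most 137.8 in MI mice, against 139.1 and more in sham mice. These probes were left out of the main test, and no test of them is reported here.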

How the results depend on the processing

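The 208 called genes kept their sign under every alternative run on the same probe of each gene, and 1 of them turned sign when genes were read from their most variable probe (by interquartile range). The count moved more than the genes. It was 480 without the chip, 450 with the chip as a random block, 429 with array weights, 534 with the authors' log2 values and no chip, 320 with the methods' t-test after adjustment and 615 at its unadjusted threshold of 0.01 with a fold of 1.2, both without the F test that came first in the study. It was 104 with only the MI and sham arrays fitted, which leaves fewer arrays to estimate the chips, and 16 without the 3 arrays with atrial genes, which leaves chip 2 without MI and chip 3 without sham. With a replicate block it was 23 beside the chip and 493 without the chip. The replicate numbers are only names: same-numbered MI and sham deviations correlated at -0.214 to 0.156, and 2 of 6 numbers were closest to their own. Leaving out 1 array gave 79 (without MI replicate 5) to 209. The number of probes called between MI and sham was 650 without the chip, against 267. Other background, scaling, filter and probe choices gave 152 to 273 genes. For the named genes, 3356 values over all alternatives kept direction and side of the threshold, 596 lost the call, 122 gained it and 42 turned in sign. The 42 belong to 8 genes that were not called, and none was past the threshold. Leaving out 1 array gave -0.010 to 0.558 for Col3a1, -0.032 to 0.523 for Col1a2, -0.013 to 0.060 for Myh6, -0.070 to 0.003 for Atp2a2, -0.452 to 0.359 for Ucp3, -0.206 to 0.360 for Ppargc1a and -0.054 to 0.011 for Gja1. With the replicate block and the chip, Myh6 was -0.043, Atp2a2 0.015 and Ppargc1a -0.102. From the most variable probe, Actc1 was 0.026 and Myh6 -0.219. Myh6 was also -0.105 as the mean of its probes, -0.003 with only the MI and sham arrays, -0.184 with 75th percentile scaling and -0.027 on the authors' log2 values. Ucp3 was -0.236 without the chip (also with the replicate block or the t-test), -0.207 with the chip as a random block, -0.009 with 75th percentile scaling and -0.013 with array weights. On the authors' log2 values without the chip, Ucp3 was -0.081 and Atp2a2 0.006. Without the 3 arrays with atrial genes, Ucp3 was -0.146 and Gja1 0.112, and without them and the chip Ucp3 was -0.170, Ppargc1a -0.216 and Gja1 0.072. Each chip holds a single MI or a single sham array, so the comparison within chips rests on few arrays and small changes may be missed.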

Other observations

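Of the 208 called genes, 129 lay in none of the gene lists. The genes named here, Svep1 of the matrix glycoprotein list among them, were chosen after their values were seen, so the values are a description. Aqp8, a water and peroxide channel, was 5.72, 6.41 and 7.20 in MI mice (lowest, median and highest), against 4.84, 5.12 and 5.69 in sham mice (difference 1.34, limma adjusted p = 0.00185). Svep1, a large matrix protein, had a median of 7.35 in MI mice and 5.79 in sham mice (difference 1.27, adjusted p = 0.00303). Adamtsl2, a matrix protein that binds microfibrils, differed by 1.18 (adjusted p = 0.0254), and Cd44, the hyaluronan receptor, by 1.10 (adjusted p = 0.00171), with a second probe at 0.62. The groups of all 4 genes were apart. Transcription factors were also among the rises: Sox9, known from cartilage and valves, was 7.65 to 8.09 in MI mice and 6.70 to 7.31 in sham mice (difference 1.01, adjusted p = 0.00303), and Meox2, the paralog of Meox1, differed by 0.62 with overlap (adjusted p = 0.0207). Bcl2, an inhibitor of apoptosis, differed by 0.66 (adjusted p = 0.0154), with further probes at 0.70 and 0.91. The sham signals of Aqp8 were low, as were those of Lox and Pamr1 and the MI signals of Ccl11 and Sorcs2. How far the low signal bears on the size of these differences was not tested.

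Among the falls, Gcat, which cleaves a threonine product to glycine, was 7.66, 7.78 and 7.86 in MI mice and 8.19, 8.41 and 8.63 in sham mice (difference -0.74, limma adjusted p = 0.00371). Aldh1l2, of mitochondrial folate metabolism, differed by -0.76 (adjusted p = 0.0135), both without overlap. Twnk, the helicase of mitochondrial DNA, and Top1mt, its topoisomerase, differed by -0.45 and -0.53 (adjusted p = 0.0411 and 0.0279), and Twnk stayed past the threshold without only 3 of the 12 arrays in turn. A second probe of Top1mt differed by -0.145. Tnnt1 and Myh8, a slow skeletal troponin T and the perinatal skeletal myosin, differed by -0.44 and -0.54 (adjusted p = 0.00984 and 0.0426), the opposite direction to Myh7 and Acta1. Lifr, a receptor subunit of the interleukin 6 family, and Stat5a, which carries cytokine signals to the nucleus, each differed by -0.44 (adjusted p = 0.0339 and 0.0366). Myh8 stayed past the threshold without only 1 of the 12 arrays in turn and Stat5a without only 2. Without the chip in the model, Tnnt1, Twnk and Lifr did not pass the test (adjusted p = 0.0806, 0.06 and 0.0589).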
